A study of Homo sapiens with 12 samples.

Results

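The 31 genes described here supply amino acids and load them onto tRNA in KO52 cells, an acute myeloid leukaemia line with biallelic CEBPA mutations. They were taken as a named list, comprising 5 enzymes of serine, glycine and folate metabolism, 5 enzymes of asparagine, proline, cysteine and alanine metabolism, 8 amino acid transporters and 13 cytosolic tRNA synthetases. Every open-chromatin region that overlapped the body of such a gene or the 10 kb on either side was counted as belonging to it. This gave 341 regions out of 214231 at the 20033 protein-coding genes and 355515 in the whole genome. A region is the union of overlapping peaks from 6 peak lists, and it is "present" in a list when that list has a peak there.

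The lists came from ATAC-seq, in which the transposase Tn5 cuts accessible DNA, and cover 3 KO52 lines, each with DMSO or with tunicamycin (Tm) at 2 µg/mL for 8 h. The lines carried an empty vector (EV), p42, the full-length C/EBPα protein, or p30, the shorter isoform that lacks transactivation domains at the N-terminus. The study describes long-term p42 and p30 lines of KO52 as transduced with fusions to ERT2 and sorted for GFP. Cells with such fusions were given 4-hydroxytamoxifen beforehand to move the fusion into the nucleus, EV controls included. The ATAC-seq lines, described as transduced, are taken here to be these lines, which the study does not state. All lines keep the mutant endogenous CEBPA, and p42 and p30 were supplied as overexpressed transgenes. Each condition had 2 libraries from 50000 nuclei, and the 12 libraries were pooled by condition before peaks were called, so there is 1 list per condition. No replicate spread can be had from pooled lists, and no p-value is given; the intervals below cover the counting of regions only. In bulk chromatin, fewer cells with an open region and a less open region in each cell cannot be told apart.

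The lists differed in length and depth. They held 187704 to 254239 peaks, and their read depth, estimated from the peak caller's own background, ran from 22250000 to 29980000 tags. The p42 list in DMSO was the longest and the deepest. Of 7 myeloid markers, 7 had a promoter peak in all 6 lists, but so did 76.4% of coding genes, so this says little about the cell type. Of 17 markers of other cell types, 9 had one in all 6 lists, among them 3 of 3 T cell genes, and 6 had none in any, among them 3 of 3 erythroid genes. An open promoter is therefore not read here as expression.

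Amino acid shortage and stress in the endoplasmic reticulum converge on phosphorylation of the initiation factor eIF2, which slows general translation and lets the transcription factor ATF4 be made. ATF4 forms dimers with C/EBP proteins and binds composite elements made of a C/EBP and an ATF part, and many enzymes, transporters and synthetases of amino acid metabolism are known ATF4 targets. Tunicamycin blocks N-linked glycosylation and so causes this stress. The comparisons below ask how open chromatin at these genes differs between p42, p30 and EV, and how it differs after Tm.

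The core of the C/EBP-ATF element, searched as TGATGNAA on both strands, stood out by sequence in the promoters, and the windows are shown for that reason. Of 23 members with a RefSeq promoter (GRCh38.p14, 250 bases before to 50 after the start), 9 (39.1%) held it, against 389 (2.54%) of 15345 coding-gene promoters. The stricter TGATGCAA was in 6 (26.1%) against 0.678%. Many genes of this kind are known ATF4 targets, so these shares may follow from the choice of the list, which was not tested. The shares at related genes outside the list are not given. PSPH, SHMT2, PYCR1, GPT2, SLC7A11, LARS1, VARS1 and YARS1 had no entry. The windows read 5′ to 3′ on the strand of the gene, the capitals mark the element, which reads as its reverse complement where it lies on the other strand, and positions count from the start base as 0.
ASNS, promoter chr7:97872359-97872658, minus strand, element from -68: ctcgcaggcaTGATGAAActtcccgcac
SLC3A2, promoter chr11:62881449-62881748, plus strand, element from 37: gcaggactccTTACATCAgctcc
SLC7A1, promoter chr13:29595639-29595938, minus strand, element from 7: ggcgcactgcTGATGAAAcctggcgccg
AARS1, promoter chr16:70289457-70289756, minus strand, element from -187: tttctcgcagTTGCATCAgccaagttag
CARS1, promoter chr11:3057374-3057673, minus strand, element from -2: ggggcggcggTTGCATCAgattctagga
IARS1, promoter chr9:92293648-92293947, minus strand, element from -13: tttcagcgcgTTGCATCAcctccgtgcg
MARS1, promoter chr12:57487818-57488117, plus strand, element from -4: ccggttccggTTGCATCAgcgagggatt
NARS1, promoter chr18:57621787-57622086, minus strand, element from 14: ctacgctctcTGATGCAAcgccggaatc
TARS1, promoter chr5:33440715-33441014, plus strand, element from 2: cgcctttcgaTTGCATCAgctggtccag

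Of these 9, 6 were synthetases, the enzymes that join an amino acid to its tRNA, and in all 6 the letters were TGATGCAA. The others were ASNS, which makes asparagine, SLC3A2, the heavy chain shared by several amino acid transporters, and SLC7A1, the importer of arginine and lysine. The other searched letters were in few of these promoters. A C/EBP motif (TTGCNNAA or TTGNNCAA) was in 3 (13.0%, against 10.8%), namely AARS1, PHGDH and PSAT1, and an AP-1 motif (TGANTCA) was in 1 (4.35%, against 5.74%), SLC3A2. The cyclic AMP response element TGACGTCA was in 0 (against 2.64%), as was the endoplasmic reticulum stress element, CCAAT and CCACG with 9 bases between them (against 0.124%). These are matches of letters, not measured binding sites.

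A second set of windows comes from the peaks themselves, within 100 bp of a region's summit, and is shown because these regions are named in the results below. Regions are numbered along the direction of transcription, so that WARS1.5 is the fifth region of WARS1. The windows are from hg38, plus strand, with the element in capitals.
WARS1.5, chr14:100375596-100375623: tagctggtcaTTGCATCAgccacccctc
WARS1.6, chr14:100373857-100373884: tgtgtgtgtaTGATGCAActttctgtgt
SARS1.5, chr1:109214987-109215014: ttgatttgtcTGATGCAAtaggtctgca
SHMT2.5, chr12:57230160-57230187: gccctgcagaTGATGCAAccgagcttca
SLC7A5.13, chr16:87853732-87853759: ggccggctgaTTGCATCActcgctcatt
SLC7A11.2, chr4:138242408-138242435: agctaaatgaTGATGCAAattctccagg
PYCR1.6, chr17:81937372-81937399: gccagagcggTTGCATCAtctgcgcgcc

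All 31 promoters (within 1 kb of any annotated start) had a peak in all 6 lists, against 76.4% of coding genes (15299 of 20033). The same held for 7 of 7 other cytosolic synthetases and 17 of 17 mitochondrial ones, and for 17 of 19 other amino acid genes. Presence of a peak therefore separated no condition at these promoters, and the strength of the peak was compared in its place. Strength is the rank of a peak's significance within its own list, as a percentile from the weakest to the strongest peak. For each gene the strongest promoter peak of each list was taken, so values compared between lists can come from different regions.

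**Figure D1:**
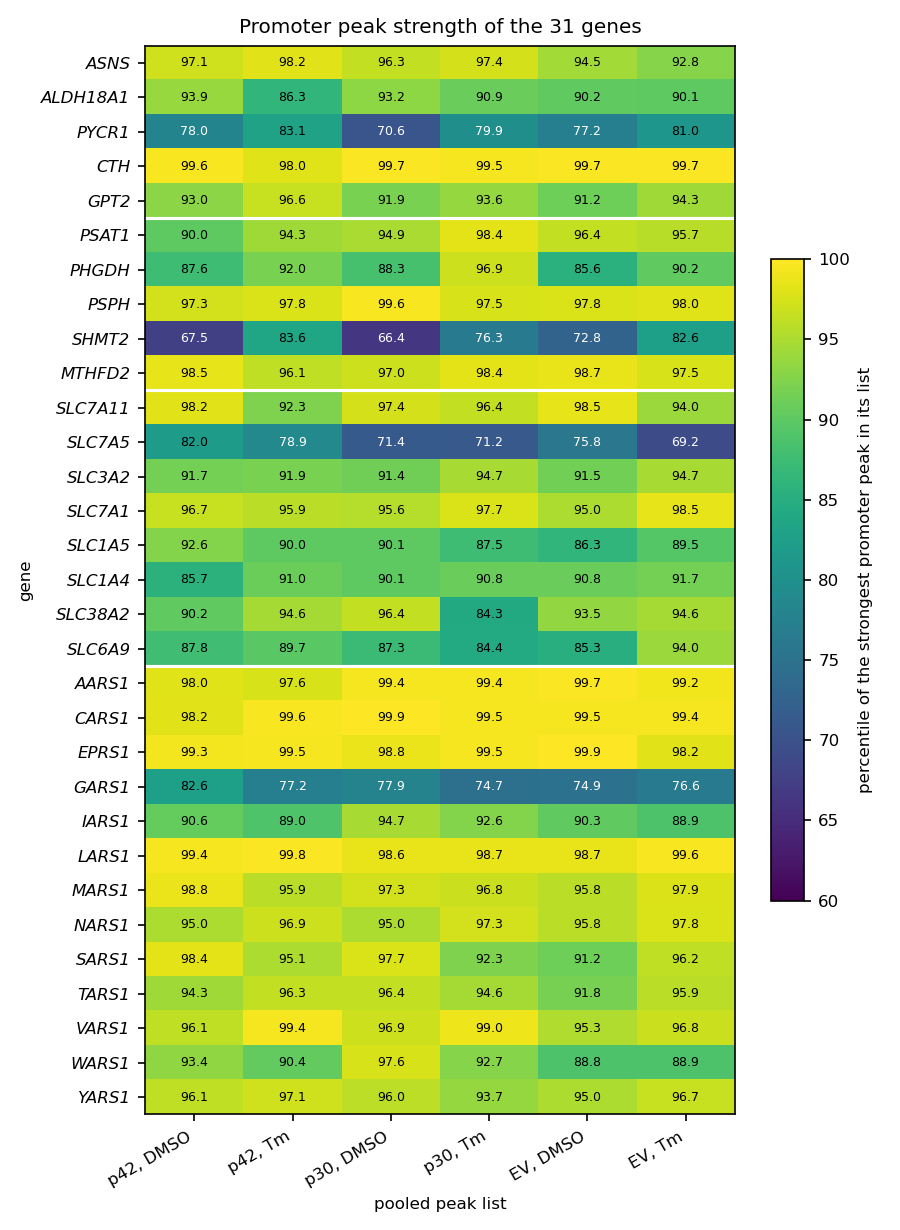
Percentile of the strongest promoter peak of each of the 31 genes (rows, grouped by role, white lines between groups) in each of the 6 pooled lists (columns), with colour from 60 to 100. Most cells lie above 85, and SHMT2, PYCR1, SLC7A5 and GARS1 form the lower rows.

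Most of these promoters ranked near the top of every list. CTH, which makes cysteine from cystathionine, stood at 99.6, 98.0, 99.7, 99.5, 99.7 and 99.7 in p42 DMSO, p42 Tm, p30 DMSO, p30 Tm, EV DMSO and EV Tm, the order used for every run of 6 values here. ASNS stood at 97.1, 98.2, 96.3, 97.4, 94.5 and 92.8. The leucyl-tRNA synthetase LARS1 stood at 99.4, 99.8, 98.6, 98.7, 98.7 and 99.6. For these 3 genes the lists lay within a few points of each other.

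Median changes in promoter percentile over the 31 genes were small in every comparison, between -0.18 (Tm minus DMSO in p30) and 1.06 (Tm minus DMSO in EV). Single genes moved further. SHMT2, the mitochondrial enzyme that splits serine into glycine and a one-carbon unit, had the highest positive difference with Tm in each line, by 16.1 points for p42, by 9.91 for p30 and by 9.84 for EV. Its values were 67.5, 83.6, 66.4, 76.3, 72.8 and 82.6, so that all 3 Tm lists lay above all 3 DMSO lists. They come from SHMT2.5, except the EV DMSO value, which is from SHMT2.4 (SHMT2.5 read 67.7 there). SHMT2.4, also at the promoter, read 65.2, 41.4, 60.1, 67.9, 72.8 and 61.8, lower with Tm in p42 and EV and higher in p30.

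Other members stood out in other comparisons. SLC38A2, a sodium-coupled transporter of small neutral amino acids, was 12 points lower with Tm in p30 (84.3 against 96.4), whereas with Tm it read 94.6 in p42 (90.2 in DMSO) and 94.6 in EV (93.5 in DMSO). SLC7A5, the light chain that imports leucine and other large neutral amino acids, was 10.6 points higher in p42 than in p30 with DMSO (82.0 against 71.4). Between p42 and EV the widest gaps were GARS1, glycyl-tRNA synthetase, at 7.68 points higher and PSAT1, the serine pathway aminotransferase, at -6.35. Between p30 and EV they were WARS1, tryptophanyl-tRNA synthetase, at 8.86 and PYCR1, the last step of proline synthesis, at -6.53. With Tm, p42 minus p30 spanned SLC38A2 at 10.3 to PHGDH, the first enzyme of serine synthesis, at -4.94. The lowest Tm differences were ALDH18A1, the entry to proline synthesis, at -7.57 in p42 and SLC7A5 at -6.62 in EV.

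Beyond promoters, the 341 regions comprised 95 at promoters, 16 in exons, 93 in introns, 47 upstream and 90 downstream. Of these, 163 (47.8%) were present in all 6 lists, against 35.6% of regions at coding genes, and 89 (26.1%) in a single list, against 31.8%. The number per gene ran from 3 at PSAT1 to 22 at SLC7A5, with a median of 11 against 9 for coding genes. At 15 members another coding gene starts inside the window, and 39 regions lie at such starts; a region of this kind cannot be assigned to either gene.

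**Figure D2:**
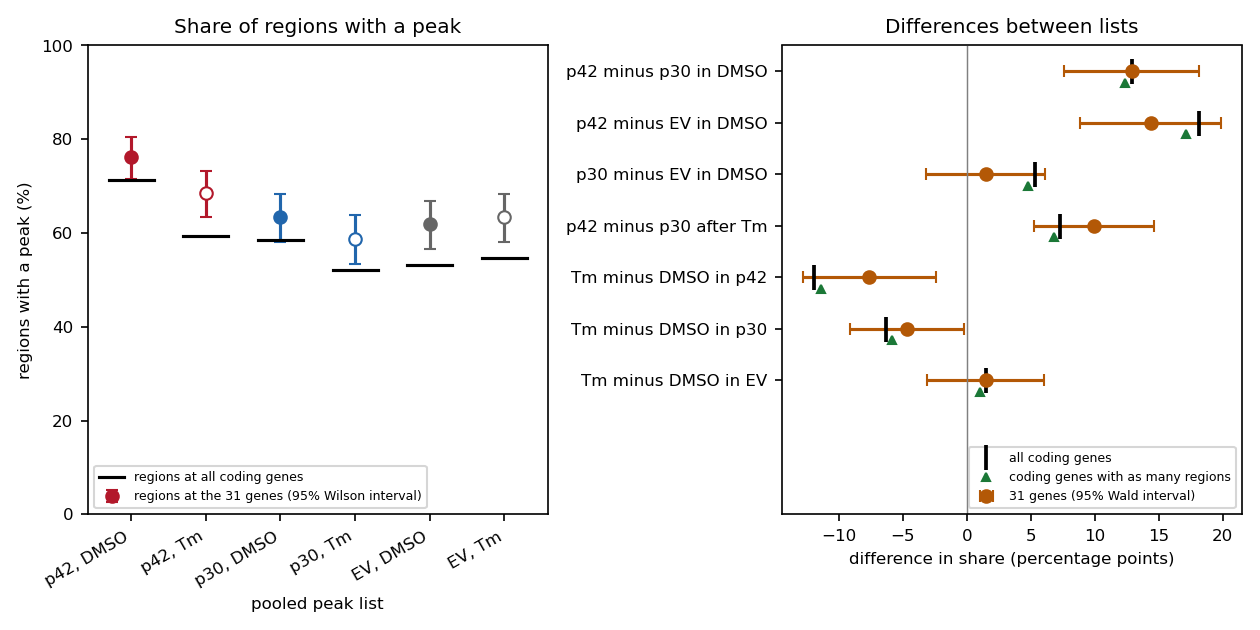
Left, share of the 341 regions with a peak in each pooled list (circles, 95% Wilson interval) and of regions at all coding genes (bars). Right, differences between lists in percentage points (circles, 95% Wald interval), for all coding genes (bars) and for coding genes with as many regions (triangles); the members' share was highest in p42 DMSO, at 76.2%.

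Of the 341 regions, 260 were present in p42 DMSO (76.2%, Wilson 95% interval 71.5 to 80.5, against 71.3% of regions at coding genes) and 234 in p42 Tm (68.6%, 63.5 to 73.3, against 59.4%). In p30 there were 216 with DMSO (63.3%, against 58.5%) and 200 with Tm (58.7%, against 52.2%). In EV there were 211 with DMSO (61.9%, against 53.2%) and 216 with Tm (63.3%, against 54.6%). The members' share lay above that of coding genes in each of the 6 lists.

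More regions were open in p42 than in p30 with DMSO, as at coding genes in general. Of the members' regions, 67 (19.6%) were present in p42 alone of the pair, against 24% of regions at coding genes. In p30 alone were 23 (6.74%), against 11.1%. The difference in share was 12.9 ± 5.28 percentage points (95% half-width), beside 12.9 for regions at coding genes and 12.3 for genes with as many regions. By gene, 24 members had more regions in p42, 2 had fewer and 5 the same number, where genes with as many regions give 20 and 4.79. When each list was cut to the same number of its strongest peaks, the difference was 1.97 points.

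LARS1 and IARS1, the leucyl and isoleucyl synthetases, had the widest gains apart from SLC7A1. LARS1 had 7, 4, 2, 2, 2 and 2 regions in the 6 lists, and only 0.572% of the 1399 coding genes with 7 regions differed by as much between p42 and p30 in DMSO. IARS1 had 7, 6, 2, 4, 4 and 5 regions (1.73% of 1155 genes). SLC7A1 had 15, 9, 9, 9, 12 and 10, a count that 13.8% of 254 genes with 19 regions reached. For all 3 genes the p42 DMSO list stood above the other 5. This follows in part from choosing them by their gain in that list, which was also the longest and deepest.

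The strongest regions present in p42 and absent in p30 with DMSO were SLC3A2.6 (an intron, percentile 70.5), LARS1.4 (an alternative start, 69.3) and IARS1.9 (downstream, 65.9). In the other direction they were EPRS1.2 at 58.2, MARS1.2 at 49.0 and SLC7A5.7 at 46.1. Among regions present in both, LARS1.5 read 62.0 in p42 against 8.8 in p30, and WARS1.6, which holds the element, 65.1 against 16.7. SARS1.3, at -6788 bp from the start of the seryl-tRNA synthetase gene, went the other way, at 27.2 against 78.6. Its 6 values were 27.2, 8.7, 78.6, 66.2, 67.9 and 70.8, with summit heights of 8, 6, 22, 15, 16 and 17 tags, so both p42 lists lay below the other 4. Tag counts here and below are not scaled for the depth of a list.

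Against EV with DMSO, p42 again had more regions; this comparison uses the same p42 list as the one with p30. There were 74 (21.7%) in p42 alone, against 26.5% of regions at coding genes, and 25 (7.33%) in EV alone, against 8.36%. The difference was 14.4 ± 5.51 points, beside 18.2 for coding genes and 17.1 for genes with as many regions, and 24 members had more, 1 fewer and 6 equal numbers, where 22.9 and 2.82 were the values for genes with as many regions. With lists of equal size the difference was 0.984 points. By role the difference with full lists was 22 points at the serine, glycine and folate genes (50 regions) and 18.7 at the synthetases (123). It was 9.76 at the transporters (123) and 6.67 at the asparagine, proline, cysteine and alanine genes (45). Related genes outside the members gave 26.6 (other cytosolic synthetases), 15.9 (mitochondrial synthetases) and 24.7 (other amino acid genes). For p42 minus p30 with DMSO these sets gave 26.6, 12.2 and 19.0, beside 14.6 at the member synthetases. Differences of this size were thus also seen outside the members.

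The strongest regions present in p42 and absent in EV were SLC3A2.6, LARS1.4 and CARS1.9, an intronic region of cysteinyl-tRNA synthetase at 67.2. Those present in EV and absent in p42 were IARS1.5 at 43.8, SHMT2.2 at 37.9 and GPT2.5 at 30.9. Among shared regions, SLC6A9.7, in an intron of the glycine transporter, read 66.7, 21.2, 40.3, 29.9, 0.6 and 27.9. SLC1A4.2, upstream of a transporter of alanine, serine and cysteine, read 77.0, 70.7, 67.9, 46.9, 18.2 and 53.7. PSPH.2 read 79.2 in p42 DMSO against 29.4 in EV DMSO, but it lies at the start of CCT6A. For all 3 the EV DMSO list was the lowest, which follows in part from choosing them by their p42 minus EV difference.

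The p30 and EV lists differed by less at these genes than p42 did from either with DMSO. This comparison shares its lists with the 2 before it. With DMSO, 35 regions (10.3%) were present in p30 alone, against 13.8% of regions at coding genes. In EV alone were 30 (8.80%), against 8.54%. The difference was 1.47 ± 4.63 points, beside 5.30 for coding genes. Its interval holds both 0 and 5.30, so it does not decide between them. Members with more, fewer and equal numbers were 10, 9 and 12, where genes with as many regions give 14.9 and 6.78 for the first and second. The difference by role was 12 points at the serine, glycine and folate genes, on 36 against 30 of 50 regions. It was 4.07 at the synthetases, which is below the 5.30 for coding genes. The transporters (-3.25) and the asparagine, proline, cysteine and alanine genes (-4.44) had fewer regions in p30. With a peak threshold of 10 on the −log10 q scale the difference over all members was 6.21 ± 5.48 points.

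The strongest regions of p30 absent in EV were EPRS1.2, SLC1A4.6 at 56.3 and MARS1.2, and those of EV absent in p30 were IARS1.5, IARS1.9 at 43.8 and SLC7A1.3 at 38.2. Among shared regions p30 was higher at SLC1A4.2, at CARS1.1 (75.9 against 27.2) and at YARS1.7, in an intron of tyrosyl-tRNA synthetase (77.4 against 34.2).

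After Tm, p42 again had more regions than p30. There were 52 (15.2%) in p42 alone, against 16.8% of regions at coding genes, and 18 (5.28%) in p30 alone, against 9.57%. The difference was 9.97 ± 4.69 points, beside 7.25 for coding genes and 6.79 for genes with as many regions, and 20 members had more, 1 fewer and 10 equal numbers, where 16.3 and 6.57 were the values for genes with as many regions. It was 1.31 points with lists of equal size and 3.45 with the stricter peak threshold.

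In this comparison WARS1.6 (64.9), SLC1A4.11 (64.4) and SLC3A2.6 (54.0) were the strongest regions of p42 absent in p30. SLC7A11.9 (53.1), SLC7A11.14 (37.8) and YARS1.6 (33.2) were those of p30 absent in p42. SLC7A11 encodes the cystine importer, and SLC7A11.9 holds the element in an intron. Among shared regions, SARS1.3 was lower in p42 (8.7 against 66.2), while SARS1.2 (74.7 against 25.3) and SLC7A5.15 (66.4 against 17.3) were higher.

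In all, 13 regions were open in p42 with either treatment and in no p30 or EV list, which is 3.81% of the 341 beside 4.57% of regions at coding genes. They lay at PHGDH.1, GPT2.1, SLC7A5.3, SLC3A2.6, SLC3A2.10, SLC6A9.14, EPRS1.9, GARS1.1, IARS1.1, IARS1.6, IARS1.7, LARS1.4 and LARS1.6. IARS1.1 lies at the start of NOL8 and SLC6A9.14 at that of CCDC24. SLC3A2.6 was the strongest, at 70.5 with DMSO and 54.0 with Tm (19 and 14 tags at the summit), followed by LARS1.4 at 69.3 and 51.7 (13 and 9 tags). PHGDH.1, at -65823 bp from the canonical start, read 39.9 and 49.3 and holds TGATGCAA, as does LARS1.6 at 51.5 and 34.0.

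Of these 13, 7 (53.8%) hold a C/EBP motif within 100 bp of the summit, beside 3078 of 9791 regions (31.4%) of the same pattern at coding genes. The motif is shown in capitals in the windows here (hg38, plus strand) because p42 is a C/EBP protein.
SLC3A2.6, chr11:62861279-62861306: tgagctttaaTTGTGCAAcaaatagagg
SLC3A2.10, chr11:62872418-62872445: ggtgggaggaTTGCTTAAgctgaggaag
GPT2.1, chr16:46877761-46877788: tacatccacaTTATGCAAccataaccac
SLC7A5.3, chr16:87871140-87871167: gttagagccaTTTTGCAAataaggaagc
EPRS1.9, chr1:219965494-219965521: cactgagtgaTTGCCTAAtttggcatct
GARS1.1, chr7:30585872-30585899: actgggtggcTTACGCAAtagaaacgta
IARS1.6, chr9:92265365-92265392: agcaaagtaaTTCAGCAAgctagtcact

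With lists of equal size 7 regions, and with the stricter threshold 6, were present in both p42 lists alone. The reverse pattern was rarer. Regions present in both p30 lists alone were 2 (0.587%), SLC3A2.12 (5.5 and 25.3) and YARS1.6 (21.0 and 33.2), beside 0.59% of regions at coding genes. None was present in all p42 and p30 lists and absent from EV (0.621% of regions at coding genes), and none in all p30 and EV lists and absent from p42 (0.805%). MARS1.9, in an intron of methionyl-tRNA synthetase, was the 1 region present in all p42 and EV lists and absent from p30 (0.449%), at 44, 21.2, 9.4 and 20, and it holds a C/EBP motif.

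Over all members, 42 regions (12.3%, beside 14.7% at coding genes) hold the C/EBP motif, and they set p42 apart from p30 by more than the members' regions at large. Of the 42, 36, 27, 17, 16, 21 and 18 were present in the 6 lists. With DMSO, 19 of the 42 (45.2%) were present in p42 alone, against 35.8% of C/EBP-motif regions at coding genes. In p30 alone were 0, against 7.7%. The difference was 45.2 ± 15.1 points, beside 28.1 for such regions at coding genes. The interval covers only the counting of regions in pooled lists, so it cannot decide whether members differ from coding genes. With lists of equal size it was 30.6, with the stricter threshold 23.1, and with the motif sought within 50 or 200 bp 68.4 and 29.1; these alternatives, and this comparison, were chosen after seeing the data.

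Against EV with DMSO, the C/EBP-motif regions differed by 35.7 ± 19.6 points in favour of p42, beside 33.0 at coding genes. After Tm, p42 minus p30 was 26.2 ± 14.8, beside 16.7. Within p42, Tm minus DMSO was -21.4 ± 14.1, beside -16.8. Here 1 of the 42 regions was present with Tm alone, against 8.41% of such regions at coding genes. With DMSO alone were 10 of the 42, against 25.2%. SLC7A5 held the most C/EBP-motif regions, 5, and SLC7A11, SLC3A2, SLC7A1, SLC6A9 and WARS1 held 3 each.

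The C/EBP-ATF element lay near the summit in 26 regions (7.62%, beside 4.31% at coding genes), and TGATGCAA in 16 (4.69%, beside 1.15%). Their presence was high throughout. Of the 26, 26, 22, 21, 20, 19 and 21 were present in the 6 lists, or 100%, 84.6%, 80.8%, 76.9%, 73.1% and 80.8%, where regions with the element at coding genes had 74.8%, 61.2%, 43.8%, 44.3%, 40.1% and 45.1%. In all 6 lists were 18 of the 26, beside 2363 of 9237 such regions at coding genes. They include the promoter regions ASNS.2, PYCR1.6, SLC7A11.2, SLC1A4.4, CARS1.3, GARS1.2 and NARS1.2. PSPH.4, MTHFD2.9 and SLC6A9.1 were in p42 DMSO alone.

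With DMSO, 5 of the 26 regions with the element (19.2%) were present in p42 and absent in p30, against 38% of such regions at coding genes. The other way there were 0, against 7.05%. The difference was 19.2 ± 15.1 points, beside 31 at coding genes. It stayed at 19.2 with lists of equal size and ran from 11.8 to 26.7 over 6 other settings. At the stricter threshold it was 11.8 ± 15.3 and with TGATGCAA alone 18.8 ± 19.1, intervals that hold 0. Against EV it was 26.9 ± 17.0 points, beside 34.6. Within p42, Tm minus DMSO was -15.4 ± 13.9, beside -13.6. Here 0 of the 26 regions were present with Tm alone, against 10.5%, and 4 of the 26 with DMSO alone, against 24.1%. With the stricter threshold this difference turned to 5.88 points, on 1 region present with Tm alone. In p30 the Tm difference was -3.85 points and in EV 7.69.

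Fewer regions were present with Tm than with DMSO in p42 and p30, and slightly more in EV. In p42, 29 regions (8.50%) were present with Tm alone, against 8.48% of regions at coding genes. With DMSO alone were 55 (16.1%), against 20.4%. The difference was -7.62 ± 5.21 points, beside -11.9 at coding genes and -11.4 at genes with as many regions. Of the members, 8 had more regions with Tm and 18 fewer, where 4.27 and 19.7 were the values for genes with as many regions. Over 6 other settings of threshold, list size, depth, overlap and gene window the difference ran from -13.8 to -2.95 points. The widest decreases in number were SLC7A1, from 15 to 9 regions, and CARS1, from 13 to 9.

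In p30, 22 regions (6.45%) were present with Tm alone, against 8.1%, and 38 (11.1%) with DMSO alone, against 14.4%. The difference was -4.69 ± 4.42 points, beside -6.30, with 5 members higher and 17 lower, where genes with as many regions give 6.23 and 15.8. It ran from -8.21 to -2.3 over the same settings. In EV, 34 (9.97%) were present with Tm alone, against 11.2%, and 29 (8.50%) with DMSO alone, against 9.67%. The difference was 1.47 ± 4.56 points, beside 1.49, with 11 members higher and 10 lower, where genes with as many regions give 11.3 and 9.67. The sign of the difference turned with lists of equal size (-3.28) and with gene bodies without flanks (-4.04). SLC7A11 had 4 more regions with Tm in EV, 12 against 8.

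By role, Tm minus DMSO in p42 was -8 points at the serine, glycine and folate genes, 0 at the asparagine, proline, cysteine and alanine genes, -8.94 at the transporters and -8.94 at the synthetases. In p30 the same groups gave -14, -4.44, -4.07 and -1.63, and in EV 6, 0, -4.07 and 5.69. Lists of related genes outside the 31 gave, in p42, -12.5 for other cytosolic synthetases, -8.94 for mitochondrial synthetases and -18.6 for other amino acid genes.

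Named regions that came or went with Tm were few. WARS1.12, downstream of WARS1, was the 1 region present in all 3 Tm lists and no DMSO list (0.199% of regions at coding genes), at 39.3, 16.2 and 0.0 in p42, p30 and EV, the last value being the weakest kind of peak in its list. AARS1.3, inside the promoter window of alanyl-tRNA synthetase and at the start of DDX19B, was the 1 region present in all 3 DMSO lists and no Tm list (0.486%), at 28.6, 37.4 and 38.1. GPT2.14, downstream of the mitochondrial alanine aminotransferase, read 57.6, 50.3 and 55.8 with Tm, while with DMSO it was absent from p42 and EV and read 8.8 in p30.

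In p42, SARS1.8 at 50 was another region with Tm alone, and SLC1A5.8 (62.0), SLC7A11.11 (54.1) and SLC38A2.1 (53.7) had DMSO alone. In p30, EPRS1.3 (57.6), SLC7A11.13 (48.6) and SLC7A11.14 (37.8) had Tm alone, and MTHFD2.6 (58.8), EPRS1.2 (58.2) and PHGDH.16 (47.7) DMSO alone. In EV, GPT2.14, EPRS1.10 (52.5) and PHGDH.16 (46.5) had Tm alone, and SLC7A1.3, AARS1.3 and SHMT2.2 DMSO alone. PHGDH.16 thus went in opposite directions in p30 and EV.

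Among shared regions, the widest differences in p42 were SLC7A1.17 (53.8 with Tm against 4.1), GPT2.9 (25.8 against 73.6) and SLC7A5.5 (13.0 against 58.8). In p30 they were WARS1.5 (87.6 against 16.7), PYCR1.4 (11.9 against 54.2) and EPRS1.8 (8.8 against 50.5). In EV they were YARS1.11 (62.9 against 3.5), PHGDH.10 (4.3 against 55.5) and SARS1.1 (3.0 against 52.7). WARS1.5 is the widest of these 9 and the only one that holds the element.

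The clearest difference with Tm was in WARS1.5, a region of chr14:100375453-100375785 that lies at -271 bp from the canonical start of WARS1 and also at a start of WDR25. Its percentiles were 39.4, 82.2, 16.7, 87.6, 48.2 and 84.0, and its summit heights 16, 36, 13, 39, 16 and 37 tags. All 3 Tm lists lay far above all 3 DMSO lists. The neighbouring region WARS1.4, at -1062 bp, read 91.1, 83.6, 97.6, 92.7, 87.6 and 88.9, without such a split.

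SARS1.5, 1072 bp into the seryl-tRNA synthetase gene (chr1:109214868-109215076), read 68.1, 79.1, 46.4, 77.3, 59.4 and 89.1, with summits of 21, 27, 15, 27, 18 and 35 tags. The main SARS1 promoter region, SARS1.4, read 98.4, 95.1, 97.7, 92.3, 91.2 and 96.2, lower with Tm in p42 and p30 and higher in EV. SHMT2.5 (chr12:57229544-57230412) read 67.5, 83.6, 66.4, 76.3, 67.7 and 82.6, with 23, 32, 21, 29, 21 and 33 tags. SLC7A5.13, in an intron, read 88.9, 94.1, 75.7, 93.5, 77.8 and 88.6, with 39, 43, 27, 42, 28 and 38 tags. Each of these 3 regions holds TGATGCAA, and in each the Tm value lay above the DMSO value of the same line in all 3 lines.

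**Figure D3:**
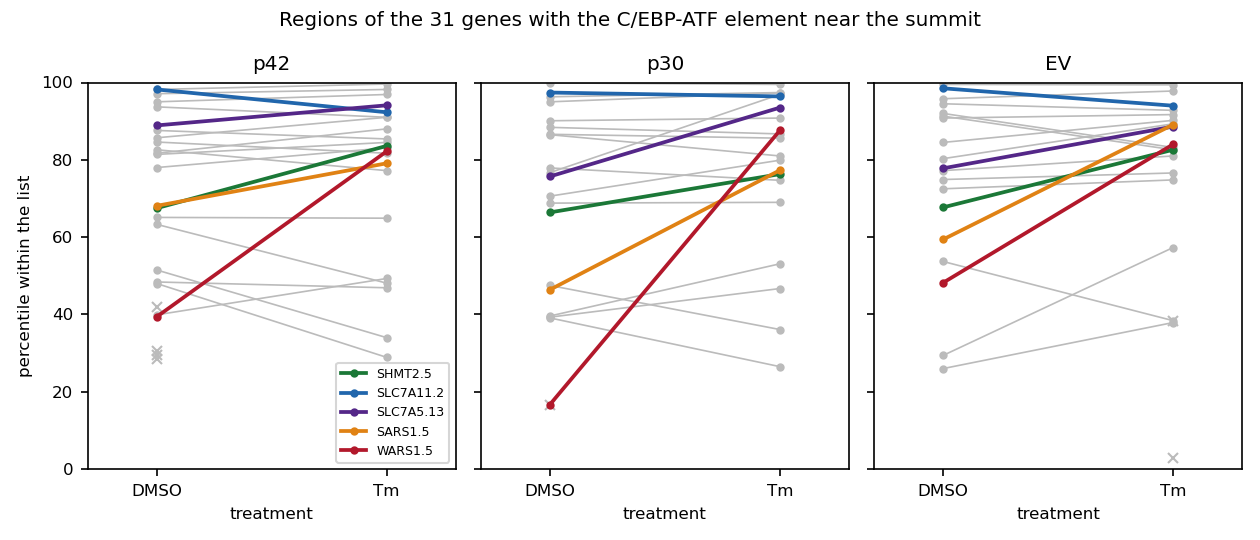
Within-list percentile of each of the 26 regions with TGATGNAA in DMSO and Tm (lines join a region present in both lists, crosses mark a region present in a single list of the pair), by line. WARS1.5 (red) climbs from 39.4, 16.7 and 48.2 to 82.2, 87.6 and 84.0 in p42, p30 and EV, while SLC7A11.2 (blue) is lower with Tm in each panel.

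Not every region with the element was higher with Tm. SLC7A11.2, at the SLC7A11 promoter, holds TGATGCAA and read 98.2, 92.3, 97.4, 96.4, 98.5 and 94.0, lower with Tm in each line. Over regions with TGATGCAA present in both lists of a line, 10 of 15 were higher with Tm in p42 (median 3.13, beside -3.43 at coding genes), 9 of 12 in p30 (8.32, beside 0.42) and 10 of 12 in EV (7.33, beside 4.29). With TGATGNAA these were 12 of 22 (1.27, beside -3.90), 12 of 20 (0.89, beside -0.27) and 13 of 19 (2.33, beside 2.19). Over all member regions present in both lists, 85 of 205 were higher in p42 (41.5%, beside 38.6% at coding genes), 77 of 178 in p30 (43.3%, beside 39.8%) and 91 of 182 in EV (50%, beside 54.1%), which is close to the background in each line.

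A shift of 10 percentile points or more in the same direction in all 3 lines, a rule added after the data were seen, was met upward by 5 of the 163 regions present in all lists (3.07%, against 0.807% of such regions at coding genes). They were WARS1.5, SARS1.5, SLC7A5.12, SHMT2.9 and PYCR1.9. SHMT2.9 (14.3, 47.1, 16.1, 37.3, 3.1 and 45.2) lies at the start of NDUFA4L2 and PYCR1.9 (48.0, 59.1, 45.9, 62.7, 53.0 and 72.5) at that of MAFG. A shift downward was met by 5 regions (3.07%, against 2.32%), PHGDH.10, GPT2.13, SLC7A11.12, VARS1.1 and VARS1.4. Of 18 regions with TGATGNAA in all lists, 2 (11.1%, beside 1.44%) were among the upward 5 and VARS1.4 was among the downward 5.

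SLC7A5.12, 14795 bp into SLC7A5 and next to SLC7A5.13, is the only member region with the endoplasmic reticulum stress element. It read 25.5, 46.2, 28.2, 62.1, 27.5 and 59.3, with 14, 17, 14, 22, 14 and 22 tags at the summit. Its window is shown here with the element in capitals on the other strand (hg38, plus strand).
SLC7A5.12, chr16:87854705-87854743: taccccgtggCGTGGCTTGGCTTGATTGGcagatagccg

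A further 6 genes are given in full, and the maps of WARS1, SARS1, SLC7A5, SLC3A2, ASNS and SLC7A11 show the regions by distance from the start.

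**Figure D4:**
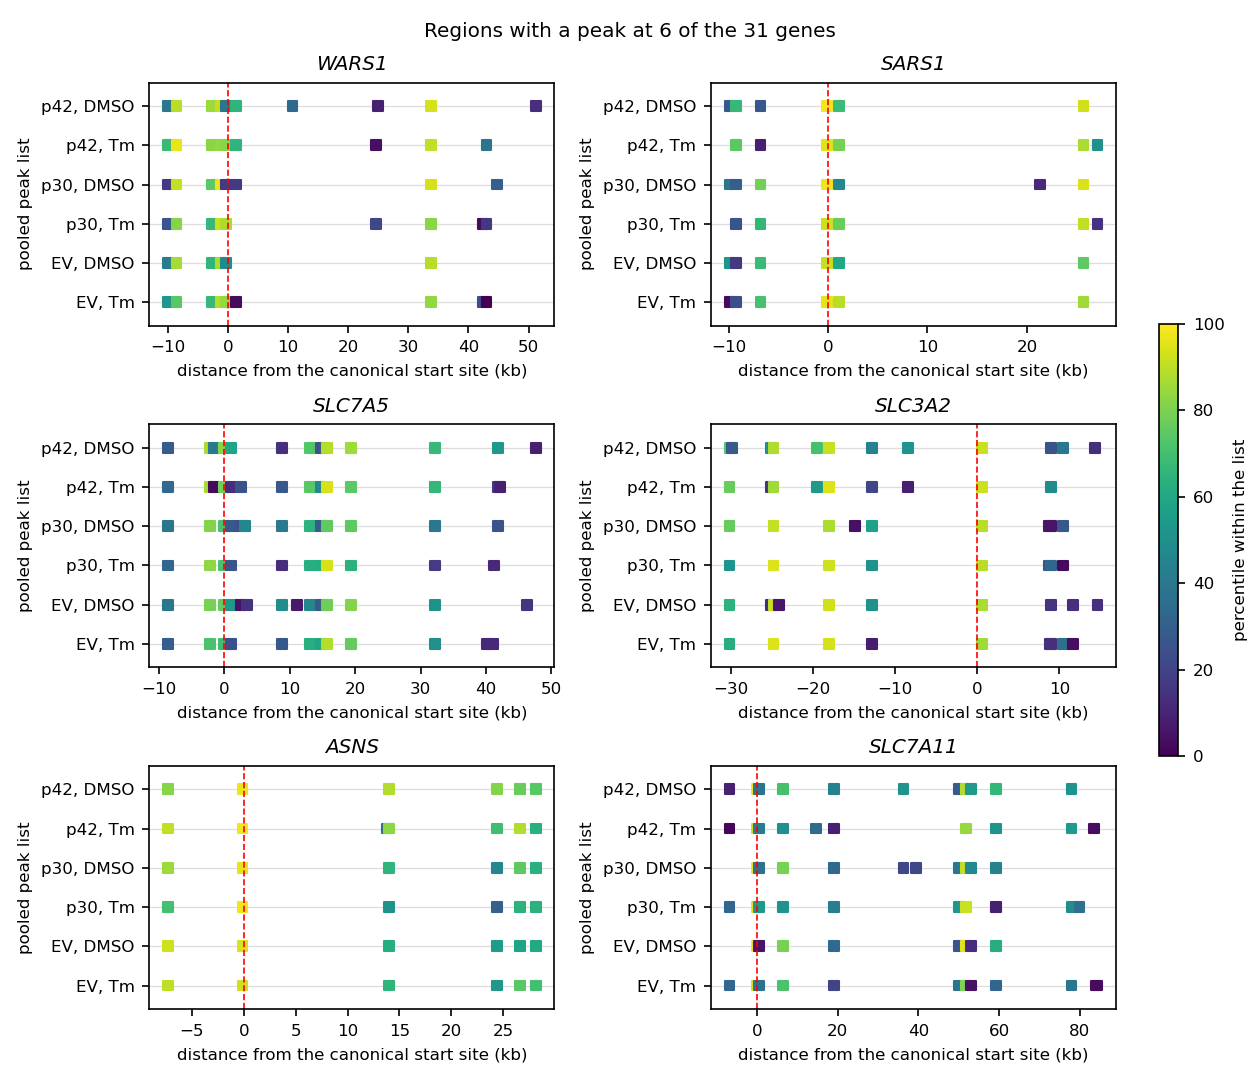
Regions with a peak in each of the 6 pooled lists (rows) at WARS1, SARS1, SLC7A5, SLC3A2, ASNS and SLC7A11, by distance in kb from the canonical start (dashed line), coloured by within-list percentile. At SLC3A2 the region at -19519 bp and at ASNS the stronger squares 14017 bp after it are seen in the p42 rows.

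ASNS had 6, 7, 6, 6, 6 and 6 regions. Its promoter region ASNS.2 (chr7:97871624-97872694), whose element is among the promoter windows above, had summits of 47, 48, 45, 48, 40 and 41 tags. ASNS.4, at an alternative start 14017 bp downstream and with a C/EBP motif, read 88.4, 82.7, 65.2, 50.3, 62.0 and 65.0. ASNS.5 read 81.4, 69.2, 46.0, 29.9, 54.7 and 53.1. At ASNS.4 and at ASNS.5, which lies downstream of the gene, both p42 lists lay above the other 4. ASNS.3 was in p42 Tm alone, at 34.0. ASNS.1, upstream, was present in all lists at 70.3 to 92.4, and so were the downstream regions ASNS.6 at 58.5 to 88.1 and ASNS.7 at 60.4 to 74.

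PSAT1 had 2, 3, 2, 1, 1 and 1 regions, the fewest of the members. PSAT1.2, 1033 bp after the start, read 26.6 and 30.8 in p42 and 15 in p30 DMSO and was absent elsewhere, and PSAT1.3 was in p42 Tm alone, at 21.2. CTH had 5, 3, 4, 3, 4 and 3 regions. Besides the promoter, its intronic region CTH.4 was in all lists at 82.7, 79.5, 81.7, 84.8, 85.0 and 75.7, and the other 4 did not pass a percentile of 42.9. CTH.1, upstream, was in every list but EV Tm, CTH.3 in EV Tm alone, CTH.5 in p42 DMSO and EV DMSO, and CTH.6 in p42 DMSO and p30 DMSO.

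SLC7A11 had 11, 10, 10, 10, 8 and 12 regions. SLC7A11.4, in the first part of the gene, read 70.6, 49.6, 79.5, 51.8, 79.5 and 71.5, lower with Tm in each line, and SLC7A11.10 read 88.3, 84.4, 90.8, 91.9, 95.5 and 80.5. SLC7A11.3, 509 bp after the start, was the lowest in EV DMSO, at 5.4, against 37.1 to 53.8 elsewhere. SLC7A11.9 was absent from p42 Tm alone and read 28.6, 39.6, 53.1, 26.0 and 37.9 in the rest. SLC7A11.6, at an alternative start and with a C/EBP motif, was in all lists at 8.7 to 44, and SLC7A11.12 read 65.9, 51.7, 43.2, 8.8, 62.0 and 32.5.

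The other SLC7A11 regions were absent from 1 or more lists. SLC7A11.1 and SLC7A11.13 were each in both p42 lists, p30 Tm and EV Tm, at 1.6 to 33.2 and at 39.0 to 54.6. SLC7A11.11 was in p42 DMSO, p30 DMSO and both EV lists, at 4.4 to 54.1, and SLC7A11.7 in p42 DMSO (51.5) and p30 DMSO (21.0). The remaining 6 were each in a single list, SLC7A11.5 (34.0) and SLC7A11.15 (3.3) in p42 Tm, SLC7A11.8 (21.0) in p30 DMSO, SLC7A11.14 (37.8) in p30 Tm, and SLC7A11.16 (3.3) and SLC7A11.17 (3.1) in EV Tm.

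SLC38A2 had 7, 8, 6, 7, 5 and 5 regions. Its promoter region SLC38A2.3 was described above, and SLC38A2.5 was in all lists at 71.3 to 80.9. SLC38A2.4, 494 bp after the start, was present in both p42 lists (14.0 and 39.8) and in EV Tm (40.3) and in no p30 list. SLC38A2.8, downstream and with the element, read 48.4, 46.9, 47.5 and 36.1 in p42 and p30 and was absent from EV DMSO, with 38.4 in EV Tm. SLC38A2.10, downstream, was in all lists at 68.0, 48.4, 62.8, 60, 80.4 and 53.8, lower with Tm in each line.

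The remaining SLC38A2 regions were absent from 2 or more lists. SLC38A2.1, just upstream, read 53.7 in p42 DMSO, 57.8 and 29.0 in p30 and 30.2 in EV DMSO. SLC38A2.2 was in p42 Tm and both p30 lists at 2.7 to 12.7, and SLC38A2.9 in both p42 lists and p30 Tm at 5.4 to 25.9. SLC38A2.6 was in EV DMSO alone, at 4.8, and SLC38A2.7 in p42 Tm alone, at 28.7.

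MARS1 had 9, 11, 9, 9, 8 and 10 regions, and 4 other coding genes start in its window. Its promoter region MARS1.7, also by a start of ARHGAP9, read 98.8, 95.9, 97.3, 96.8, 95.8 and 97.9. MARS1.8, 3528 bp into the gene, read 84.4, 92.6, 75.4, 83.5, 74.9 and 81.9, higher with Tm in each line. MARS1.12 and MARS1.13 lie at the starts of DDIT3, which encodes the stress factor CHOP, and MBD6. MARS1.12 read 88.2, 86.2, 84.9, 86.5, 89.7 and 84.2, and MARS1.13 71.6, 72.2, 70.5, 79.1, 72.5 and 72.8.

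Upstream of MARS1, 4 regions lie by starts of ARHGAP9. MARS1.3 read 80.7, 73.4, 66.5, 38.1, 60.3 and 58.3, MARS1.4 was in all lists at 60.5 to 78.9, MARS1.6 at 49.5 to 81.4, and MARS1.5 was in p30 Tm alone, at 11.9. MARS1.1 was in both p42 lists, p30 DMSO and EV Tm, at 3.4 to 30.5. MARS1.2 was in p42 Tm and both p30 lists, at 15.8 to 49.0. MARS1.9 was described above, and MARS1.10 (0.1) was in p42 Tm alone and MARS1.11 (28.0) in EV Tm alone.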

How the data were processed

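ATAC-seq libraries from KO52 cells (2 per condition, 12 in all) were, per the labels, trimmed with Trim Galore 0.6.6 and aligned to hg38 with Bowtie2 2.4.4. The authors pooled the replicates of a condition and called peaks with MACS2, and a shift for the Tn5 cut sites is not given in the sources used here. The deposited peak lists hold, per peak, the fold enrichment (a ratio to the local background), −log10 p, −log10 q and a score, the −log10 q scale starting at 1.3; no deposited file used here gives a value per replicate. Peaks on chromosomes 1 to 22, X and Y that overlapped by at least 1 bp were merged over the 6 lists, and assigned to GENCODE release 44 genes with 10 kb flanks. Strength was the percentile of −log10 q within a list. Summit tags were solved from the deposited fold and −log10 p values, and came out whole in 100% of peaks (tolerance 0.01 on the −log10 p scale); depth was estimated from the lowest background, with 2700000000 bp taken as genome size. Shares have 95% Wilson and differences 95% Wald intervals. Promoter sequences are from RefSeq. The 60 alternative settings changed the peak threshold, list size, depth, overlap, gene or promoter window, start sites and motif. Regions were named by a rule, namely those of fixed presence patterns, the 3 strongest or widest in each comparison and direction, 6 genes in full and promoters with TGATGNAA; the p42 and tunicamycin values of other regions beside them were chosen after their values were seen. The members and lists were chosen with earlier results of these data known. Scripts used Python 3.11.15, numpy 2.4.6, pandas 2.3.3, scipy 1.17.1, pysam 0.24.0 and matplotlib 3.10.9, and were tested on simulated data.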

Additional observations from a re-analysis of the deposited data

Results flagged for a closer look

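The change with tunicamycin in the share of the 341 regions with a peak had opposite signs between lines. It was -7.62 percentage points in p42 and 1.47 in EV, and -4.69 in p30 against the same 1.47 in EV. Each value rests on 1 pooled list per condition, and the difference between lines was not tested. Regions at coding genes had the same signs, at -11.9 for p42, -6.30 for p30 and 1.49 for EV. With lists of equal size the members' values were -2.95 for p42, -2.3 for p30 and -3.28 for EV, which have 1 sign.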

How the results depend on the processing

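Of 60 alternative settings, 50 left the value within its 95% interval, or a count within 1.5 times, 9 moved it by more and 1 turned the sign of a value whose interval was clear of 0. The difference p30 minus EV in DMSO, whose interval holds 0, ran from -2.02 to 6.21. Lists of equal size brought p42 minus p30 in DMSO to 1.97 points, p42 minus EV to 0.984, p42 minus p30 after tunicamycin to 1.31 and tunicamycin minus DMSO in EV to -3.28. A threshold of 10 on −log10 q gave 6.21 for p30 minus EV, 3.45 for p42 minus p30 after tunicamycin and 5.88 for tunicamycin in p42 at regions with TGATGNAA, which had been -15.4. A 50% overlap gave 4.69 for p42 minus p30 after tunicamycin and -13.8 for tunicamycin in p42, and gene bodies without flanks -4.04 for tunicamycin in EV. Apart from the smaller number of peaks that some of these settings leave, the cause was not tested. The count of 31 promoters held in its 6 alternatives. Among alternatives chosen after seeing the data, p42 minus p30 at C/EBP-motif regions was 23.1 at the stricter threshold, 68.4 within 50 bp and 29.1 within 200 bp, 6 and 7 regions were in both p42 lists alone at the stricter threshold and with equal lists, and the regions higher with tunicamycin in all lines were 10 at 5 points and 3 at 20. Peaks near the threshold are the least certain, and depth differed between lists. No library could be left out of pooled lists. No paired analysis was possible because each condition has 1 pooled list with no replicate values.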
